A study of Mus musculus with 7 samples.

Results

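The BCL2 family sets whether the outer mitochondrial membrane of a cell stays intact or is opened in apoptosis, and 10 of its genes (Bcl2, Bcl2l1, Mcl1, Bax, Bak1, Bcl2l11, Bbc3, Pmaip1, Bid and Bik) were followed here by their symbols among the 55484 genes of the count table. The count table held RNA-seq libraries from 4 samples labelled mouse embryonic fibroblasts (MEFs), cells grown out of the embryo's connective tissue, and 3 labelled mouse embryonic stem cells (mESCs), pluripotent cells derived from the early embryo. In its account of the chromatin libraries, the study gives a C57/Bl6 background for all its MEFs and mESCs. The labels give no treatment, sex, passage, culture medium or feeder layer for either cell type. The study's methods describe a sort (THY1+ fibroblasts and THY1-/SSEA1+/EPCAM+ mESCs) for its chromatin libraries and do not state one for the RNA. The study's captions call its RNA replicates biological, for fewer MEF libraries than the table holds, and neither they nor the labels say whether these came from separate embryos or lines. The p-values below therefore measure the spread between these libraries, which may in part be technical. The column names share one prefix within each cell type and carry a letter, O for every MEF and Y for every mESC library, that no source explains, and whatever it marks cannot be told apart from the cell type.

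Pro-survival family proteins hold the effectors BAX and BAK in check, and the effectors, once active, form pores through which cytochrome c leaves the mitochondrion and starts the caspase cascade. BH3-only proteins respond to stress by binding the pro-survival proteins or by activating the effectors directly, and how close a cell lies to this point is called mitochondrial priming. Pluripotent cells are known for a high readiness to undergo apoptosis. Much of the regulation of the family acts on proteins, through turnover, cleavage or a move to the membrane, and was not measured by these RNA counts.

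Of the 10 genes, 9 had enough counts to be tested, namely 3 that were higher in mESCs (Mcl1, Pmaip1 and Bid), 2 that were lower (Bcl2 and Bcl2l1) and 4 that did not pass the threshold (Bax, Bak1, Bcl2l11 and Bbc3). The threshold was an adjusted p under 0.05 in the quasi-likelihood F test of edgeR, Benjamini-Hochberg adjusted over all 16580 genes tested, of which 22.8% were higher and 25% lower in mESCs. The count of 5 in 9 is thus close to the share of all genes that passed. The median log2 fold change (mESC over MEF) of the 9 genes was 0.12, against 0.04 over all genes tested. With library size as the only scaling, in place of edgeR's TMM factors, every log2 fold change of the 9 genes moved up by 0.28 to 0.30, and 5 of them were then higher in mESCs and 2 lower. Of all 16580 genes tested, 5205 were higher and 3334 lower under that scaling.

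The libraries held 6528643 to 11441278 counts in MEFs and 7462710 to 8193825 in mESCs. Levels are given as CPM, the count divided by the TMM-adjusted size of its library in the usual scaling, and 3 counts, taken as the floor of a library, equalled 0.289 to 0.479 CPM, which covers counting error only. All 11 pluripotency markers checked were higher and all 12 fibroblast markers lower in mESCs, and each pluripotency marker had counts in every MEF library, with Zfp42 at or under the floor in all 4. The summed level of the pluripotency markers was 44.4 to 48.6 CPM in MEFs and 3470 to 3740 CPM in mESCs, and that of the fibroblast markers was 26100 to 42600 CPM in MEFs and 375 to 428 CPM in mESCs. The extraction text of the labels names young and aged blood stem cells, which no sample is labelled as. Of 7 blood cell markers, 2 were higher and 1 lower in mESCs, the summed level being 7.96 to 19.3 CPM in MEFs and 67.8 to 74.7 CPM in mESCs, with Ptprc, the defining surface protein of white blood cells, at a mean of 1.01 CPM in MEFs and 0.0381 CPM in mESCs. Laptm5 made up most of that sum in mESCs, with a mean of 58.7 CPM. Of 4 endothelial markers 1 was higher and none lower, with 9.45 to 13.2 CPM in MEFs and 25.4 to 44.5 CPM in mESCs in sum. The higher sum came from Pecam1, with a mean of 2.8 CPM in MEFs and 30 CPM in mESCs. Cdh5, Kdr and Tek had lower means in mESCs without being called. None of 4 epidermal markers passed the threshold (95.8 to 121 CPM in MEFs and 95.1 to 117 CPM in mESCs), whereas of 4 neural markers 1 was higher and 2 were lower (90.8 to 136 CPM and 50.5 to 67.1 CPM). The lower ones were Tubb3, which made up most of the MEF sum with a mean of 92.1 CPM, and Map2. Neurod1 was the higher one, with a mean of 0.064 CPM in MEFs and 25.4 CPM in mESCs. Whether cells of these other types were present, and what part they had in the results on the BCL2 family, was not tested.

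**Figure D1:**
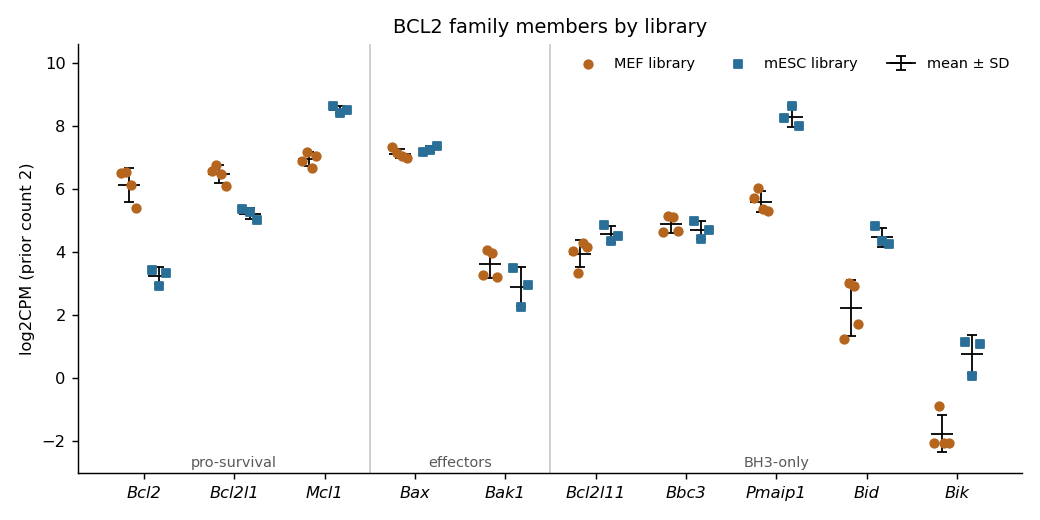
Levels of the 10 BCL2 family genes in log2CPM (prior count 2, vertical axis) in the 4 MEF libraries (circles) and 3 mESC libraries (squares), with the mean and SD of each cell type. The libraries of the cell types are apart for Bcl2, Bcl2l1, Mcl1, Bcl2l11, Pmaip1, Bid and Bik and overlap for Bax, Bak1 and Bbc3.

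The pro-survival genes did not move together. Bcl2, the founding member of the family, and Bcl2l1, whose main product is BCL-XL, were lower in mESCs, while Mcl1, which encodes a short-lived pro-survival protein, was higher. Below, values in single libraries are given in the order of the MEF libraries with 11441278, 7312679, 9176467 and 6528643 counts and the mESC libraries with 8193825, 8057985 and 7462710 counts.

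Bcl2 (chromosome 1 of GRCm38, 106538178 to 106714274, minus strand) held 933, 608, 577 and 261 counts in the MEF libraries and 98, 65 and 84 counts in the mESC libraries. These counts equal 89.9, 93.1, 69.5 and 41.7 CPM in MEFs and 10.7, 7.42 and 9.96 CPM in mESCs. The lowest MEF library thus lay well above the highest mESC library, although the MEF libraries themselves differed by 2.23 times. The mean level fell from 73.6 ± 23.7 CPM (SD, n = 4) to 9.35 ± 1.71 CPM (SD, n = 3), which is 7.86-fold lower in the fit. On the log2 scale this was a change of -2.97 ± 0.30 (SE) (edgeR adjusted p = 1.85e-05). Bcl2 was the member with the largest absolute log2 fold change of the 9 tested under TMM scaling, and Pmaip1 was with library size only. The exons of Bcl2 overlap those of D630008O14Rik over 6.09% of their bases, and that gene held 0 counts in every library.

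Bcl2l1 (chromosome 2, 152780668 to 152831728, minus strand) held 95.2, 109, 89.8 and 68.1 CPM in MEFs and 40.8, 38.1 and 32.2 CPM in mESCs. Every mESC library was below every MEF library. The means were 90.6 ± 17.1 CPM (SD, n = 4) and 37.1 ± 4.39 CPM (SD, n = 3). The fit gave a log2 change of -1.29 ± 0.19 (SE) (edgeR adjusted p = 0.000292), or 2.44-fold lower in mESCs. When the difference was tested against a fold change of 2, Bcl2l1 no longer passed (edgeR adjusted p = 0.0864). The annotation lists 8 coding transcripts of Bcl2l1, among which the counts do not distinguish, so the pro-survival long form and the pro-death short form of BCL-X cannot be told apart.

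Mcl1 (chromosome 3, 95658788 to 95663176, plus strand) went the other way, with 120, 146, 101 and 131 CPM in MEFs and 397, 343 and 361 CPM in mESCs. The libraries of each cell type lay close together, within 1.45 times in MEFs and 1.16 times in mESCs. The mean rose from 124 ± 18.9 CPM (SD, n = 4) to 367 ± 27.2 CPM (SD, n = 3). This made a log2 change of 1.56 ± 0.15 (SE) (edgeR adjusted p = 1.31e-05), which is 2.96-fold higher in mESCs.

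The promoters of Bcl2 and Mcl1 are shown because these pro-survival genes moved in opposite directions, and that of Bid because it was a BH3-only gene that rose. Each is the RefSeq window on GRCm38.p6 from 250 bases before to 50 bases after the annotated start, 5′ to 3′ on the strand of the gene, with capitals marking the motifs searched on both strands (the GC box GGGCGG, the CCAAT box CCAAT, the cyclic AMP response element TGACGTCA and the E box CACGTG).
Bcl2 (chr1:106714241-106714540, minus strand): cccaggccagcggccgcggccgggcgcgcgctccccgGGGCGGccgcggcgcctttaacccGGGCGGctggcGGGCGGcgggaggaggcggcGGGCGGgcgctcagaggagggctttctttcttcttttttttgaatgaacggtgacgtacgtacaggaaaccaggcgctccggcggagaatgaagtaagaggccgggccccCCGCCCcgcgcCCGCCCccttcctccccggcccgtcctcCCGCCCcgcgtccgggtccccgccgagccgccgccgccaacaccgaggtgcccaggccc
Mcl1 (chr3:95658471-95658770, plus strand): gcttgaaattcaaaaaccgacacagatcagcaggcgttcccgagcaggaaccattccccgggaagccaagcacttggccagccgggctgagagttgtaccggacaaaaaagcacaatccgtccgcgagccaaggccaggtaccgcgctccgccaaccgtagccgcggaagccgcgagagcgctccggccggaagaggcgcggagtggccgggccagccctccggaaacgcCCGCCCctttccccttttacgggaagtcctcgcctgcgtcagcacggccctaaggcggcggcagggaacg
Bid (chr6:120916775-120917074, minus strand): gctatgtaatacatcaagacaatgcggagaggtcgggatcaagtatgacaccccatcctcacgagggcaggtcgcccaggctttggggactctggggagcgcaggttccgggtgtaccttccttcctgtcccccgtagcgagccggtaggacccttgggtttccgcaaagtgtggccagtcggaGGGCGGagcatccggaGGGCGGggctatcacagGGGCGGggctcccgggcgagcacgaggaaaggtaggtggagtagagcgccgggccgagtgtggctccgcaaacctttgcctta
The Bcl2 window held 7 matches to the GC box and 76% G or C, that of Mcl1 1 match and 65.7%, and that of Bid 3 matches and 63.3%. None of the 3 windows held any of the other motifs. Among the windows not shown, those of Bcl2l1, also lower in mESCs, held 0 GC boxes and 49.3% to 55.7% G or C. Of the genes that did not pass the threshold, Bak1 held 0 GC boxes, Bax 3, Bcl2l11 3 in each window and Bbc3 4 to 7. GC boxes thus did not follow the direction of change in these genes, and any link to their levels was not tested. Of all 32851 windows of this length, 35.7% held a GC box, 37.4% a CCAAT box, 1.79% the cyclic AMP response element and 7.15% an E box. The table had a window for 8 of the 10 genes. Its starts are those of RefSeq, and the Mcl1 window ends at 95658770, before the GENCODE start of 95658788 given above. A match says that the letters are present and not that a factor was bound.

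The effectors Bax and Bak1, which encode the pore-forming proteins of the mitochondrial outer membrane, did not pass the threshold. Bax (chromosome 7, 45461697 to 45466898, minus strand) held 161, 142, 132 and 125 CPM in MEFs and 143, 149 and 166 CPM in mESCs. The libraries overlapped, and Bax had the smallest spread of the members in MEFs, with a coefficient of variation of 11.2% over the 4 libraries. The means were 140 ± 15.6 CPM (SD, n = 4) and 153 ± 11.7 CPM (SD, n = 3). Between the cell types the log2 change was 0.12, with a 95% interval of -0.19 to 0.44 (edgeR adjusted p = 0.518). With library size as the only scaling it was 0.41, and Bax was then higher in mESCs (edgeR adjusted p = 0.0338). The exons of Bax overlap those of Gm45808 on the same strand over 12.2% of their bases, and Gm45808 held 0 counts in every library. How reads in the shared bases were counted is not given in the sources used here.

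Bak1 (chromosome 17, 27019810 to 27029009, minus strand) held 98, 107, 128 and 57 counts in MEFs and 102, 40 and 63 counts in mESCs. Scaled, these were 9.45, 16.4, 15.4 and 9.11 CPM in MEFs and 11.1, 4.57 and 7.47 CPM in mESCs, with 1 mESC library inside the range of the MEFs and the others below it. The difference was -0.70 (log2), with a 95% interval of -1.52 to 0.12 (edgeR adjusted p = 0.145), an interval wide enough to hold both no difference and a fall of over 2-fold. Of the exon bases of Bak1, 25.5% overlap exons of Ggnbp1 on the opposite strand, which was itself higher in mESCs (1.74 CPM in MEFs and 5.56 CPM in mESCs, edgeR adjusted p = 0.00443). The strand setting of the counting is not given in the sources used here, so the counts of Bak1 and Ggnbp1 are uncertain to that extent.

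**Figure D2:**
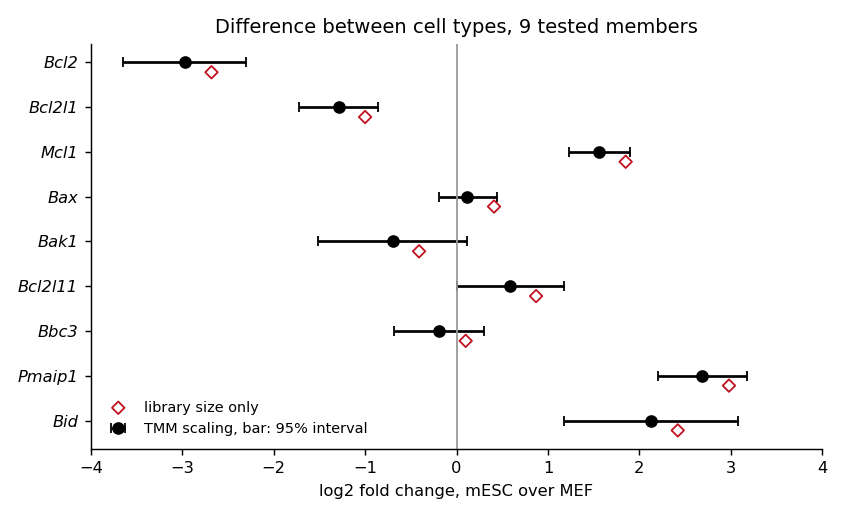
Log2 fold change of mESCs over MEFs (horizontal axis) for the 9 members tested, as filled points with 95% intervals under TMM scaling and as open diamonds with library size only. Bcl2 and Bcl2l1 lie left of 0 and Mcl1, Pmaip1 and Bid right of it under both scalings, while Bbc3 changes side from -0.19 to 0.10.

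Among the BH3-only genes, Pmaip1 and Bid rose in mESCs, Bcl2l11 and Bbc3 did not pass the threshold, and Bik had too few counts to be tested in the fit. Pmaip1 encodes NOXA, which binds MCL1 in particular. Pmaip1 (chromosome 18, 66458533 to 66465565, plus strand) held 545, 427, 340 and 244 counts in MEFs and 2788, 3503 and 2159 counts in mESCs. Scaled, these were 52.5, 65.4, 40.9 and 39.0 CPM in MEFs and 304, 400 and 256 CPM in mESCs. The lowest mESC library was far above the highest MEF library. The means were 49.5 ± 12.2 CPM (SD, n = 4) and 320 ± 73.3 CPM (SD, n = 3), and the level was 6.46-fold higher in mESCs in the fit. On the log2 scale the fit gave 2.69 ± 0.22 (SE) (edgeR adjusted p = 3.76e-06), the largest rise among the 9 genes tested.

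Bid (chromosome 6, 120891930 to 120916853, minus strand) encodes the BH3-only protein that caspase-8 cleaves, which links death receptors to mitochondria. Its libraries held 22, 52, 61 and 19 counts in MEFs and 256, 175 and 159 counts in mESCs. The levels were 2.12, 7.96, 7.34 and 3.04 CPM in MEFs and 27.9, 20 and 18.8 CPM in mESCs. No library of one cell type reached the range of the other, but the MEF libraries fell into a lower and a higher pair and spread over 3.76 times. Bid thus had the largest coefficient of variation of the 9 tested members in MEFs, at 58%, where counting alone would give about 16.1%. The log2 change was 2.13 ± 0.43 (SE) (edgeR adjusted p = 0.00208), or 4.37-fold higher in mESCs. Exons of Bcl2l13 on the opposite strand overlap 17.7% of the exon bases of Bid, and Bcl2l13 itself did not pass the threshold (log2 fold change 0.22, edgeR adjusted p = 0.628). Bcl2l13 held 155, 115, 69 and 65 counts in the MEF libraries, more than Bid. As the strand setting is not given, the counts of Bid are uncertain to that extent as well.

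Bcl2l11, which encodes BIM, a direct activator of the effectors, was close to the threshold. Bcl2l11 (chromosome 2, 128126038 to 128162547, plus strand) held 16.1, 9.80, 19.3 and 17.6 CPM in MEFs and 28.5, 20 and 22.4 CPM in mESCs. All mESC libraries were above all MEF libraries, though by little between 20 and 19.3 CPM. In the fit the log2 change was 0.59, with a 95% interval of 0 to 1.18 (edgeR adjusted p = 0.0912). It passed with library size as the only scaling, at 0.87 (edgeR adjusted p = 0.0202). The annotation lists 5 coding transcripts, and the counts do not separate the BIM isoforms.

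Bbc3, which encodes PUMA, a target of p53 that binds all of the pro-survival proteins, overlapped between the cell types. Bbc3 (chromosome 7, 16308393 to 16318205, plus strand) held 24.8, 35.2, 34.3 and 25.2 CPM in MEFs and 31.5, 21.1 and 26.0 CPM in mESCs. On the log2 scale the difference was -0.19, with a 95% interval of -0.68 to 0.30 (edgeR adjusted p = 0.521), and its sign turned with library size as the only scaling (0.10).

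Bik (chromosome 15, 83526862 to 83544634, plus strand), a BH3-only gene whose protein sits at the endoplasmic reticulum, was near the limit of detection. It held 0, 2, 0 and 0 counts in the MEF libraries and 18, 7 and 16 counts in the mESC libraries. Every MEF library was thus at or under the floor of 3 counts, and every mESC library was above it. Pooled, 41 counts in mESCs stood against 2 in MEFs, a ratio of 24.5 after scaling (95% exact binomial interval 6.35 to 209, for counting error only). The mean levels of 0.0766 CPM in MEFs and 1.55 CPM in mESCs differed by 1.48 CPM (exact permutation test over all 35 assignments of the libraries, a two-sided test with p = 0.0286, which no result with 4 and 3 libraries can go below). Without a filter beyond 1 count, over 37943 genes, Bik entered the fit and was higher in mESCs (edgeR adjusted p = 0.00234). The edgeR adjusted p of Pmaip1 was 1.65e-42 in that fit, against 3.76e-06 with the filter, at log2 fold changes of 2.66 and 2.69. The p-values of that fit are therefore not comparable with the others, and it adds no separate support for Bik.

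MEF and mESC libraries held separate ranges for 6 of the 9 members tested, or 7 of 10 with Bik, against 52.1% of all genes tested. Bulk counts do not tell fewer cells with a transcript from fewer transcripts in each cell. In mESCs, the library of 8057985 counts held the lowest level of Bcl2, Mcl1, Bak1, Bcl2l11, Bbc3 and Bik and the highest of Pmaip1. Among the MEFs, the library of 6528643 counts was lowest for Bcl2, Bcl2l1, Bax, Bak1 and Pmaip1. The pluripotency marker sum in the mESC library of 8057985 counts was 3740 CPM, the highest of the 3, and the fibroblast marker sum in the MEF library of 6528643 counts was 34300 CPM, inside the range of the MEFs.

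Ratios of counts within a library do not depend on scaling, and the length of a transcript cancels when a ratio is compared between the cell types. They were formed for each pro-survival gene over each effector and for Mcl1 over Pmaip1, and are given as a description without a test. The counts of Bcl2 for each count of Bax were 0.558, 0.655, 0.526 and 0.332 in MEFs and 0.0745, 0.0497 and 0.06 in mESCs, so that the mean ratio on the log2 scale was 8.26-fold lower in mESCs. That of Bcl2l1 over Bax was 2.64-fold lower, with 0.543 to 0.769 in MEFs and 0.194 to 0.285 in mESCs. Mcl1 over Bax was 2.72-fold higher, with 0.742 to 1.04 in MEFs and 2.18 to 2.77 in mESCs. The library ranges of these ratios did not overlap between the cell types.

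Over Bak1, the ratio of Bcl2 was 4.52-fold lower in mESCs and that of Mcl1 4.98-fold higher, again without overlap. Bcl2l1 over Bak1 ran from 5.83 to 10.1 in MEFs and from 3.68 to 8.35 in mESCs, so the libraries overlapped. Its log2 difference of -0.53 was within the spread of the mESC libraries (SD 0.62, n = 3). Mcl1 and the gene of its binding partner NOXA both rose, and the counts of Mcl1 for each count of Pmaip1 were 2.28, 2.23, 2.46 and 3.35 in MEFs and 1.31, 0.859 and 1.41 in mESCs. The mean ratio on the log2 scale was 2.18-fold lower in mESCs, without overlap.

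**Figure D3:**
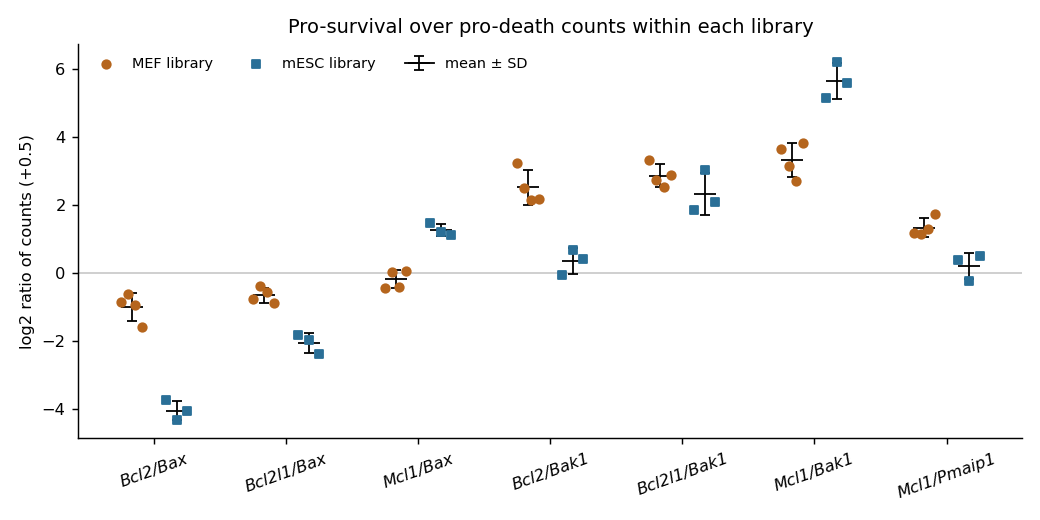
Log2 ratio of the counts of a pro-survival gene over a pro-death gene within each library (0.5 added to both counts, vertical axis), for 4 MEF libraries (circles) and 3 mESC libraries (squares) with mean and SD. The ratios of Bcl2 and Bcl2l1 to Bax are lower and those of Mcl1 to Bax and Bak1 higher in all mESC libraries, with no overlap, while Mcl1 over Pmaip1 is lower.

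A list of 62 other genes of the pathway was read from the same fit, and 54 had enough counts to be tested. Of these, 11 were higher and 16 lower in mESCs, with a median log2 fold change of -0.07. These counts are near the shares over all genes tested, of which 22.8% were higher and 25% lower, so they say nothing particular of the pathway. Under library size as the only scaling 17 were higher and 15 lower, beside 5205 higher and 3334 lower of all 16580 genes tested. In the family itself, Bok, a further effector, was 3.97-fold lower in mESCs, at 7.05 ± 1.24 CPM (SD, n = 3) against 27.9 ± 7.06 CPM in MEFs (SD, n = 4; edgeR adjusted p = 0.000168). Of 3 other BH3-only genes, Bad, whose protein is controlled by growth factor signals, fell 3.56-fold (edgeR adjusted p = 1.48e-05). Hrk rose from 2, 2, 1 and 4 counts in MEFs, of which 3 libraries were under the floor, to 60, 28 and 22 in mESCs (edgeR adjusted p = 0.00089). Bmf did not pass, with a log2 fold change of 0.80 (edgeR adjusted p = 0.152). Of 5 other pro-survival genes only Bcl2l2, which encodes BCL-W, had enough counts, and it did not pass (log2 fold change -0.23, edgeR adjusted p = 0.758). Of 7 genes related to BCL2 by name or domain, 5 were tested and 2 were lower, Bnip2 (log2 fold change -1.95) and Bcl2l12 (-1.04).

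Downstream of the mitochondria, 3 of 6 genes of the apoptosome and its caspases passed, near the share over all genes. Of these, Casp6 and Apaf1, the scaffold of the apoptosome, were 1.83-fold and 1.40-fold lower in mESCs. Of 7 genes of the inhibitors of apoptosis (IAPs) and their antagonists, 6 were tested. Of these, 1 was higher and 1 lower in mESCs, beside 22.8% and 25% of all genes tested. Birc2 was 2.60-fold higher and Birc3, its close relative, 4.34-fold lower, whereas Xiap, the direct caspase inhibitor, stood at a log2 change of 0.01 ± 0.18 (SE). Of 7 genes of the mitochondrial membrane and intermembrane space, 6 were tested. Only Dnm1l, the fission GTPase, passed, with 1.44-fold higher levels, where 22.8% of all genes tested were higher and 25% lower. The channel genes Vdac1, Vdac2 and Vdac3 had log2 fold changes of 0.10, 0.04 and 0.03.

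Of the 7 death receptor genes, 6 were lower in mESCs, beside 25% of all genes tested, and their median log2 fold change was -2.36, beside 0.04 over all genes. Whether this short list differs from the other lists was not tested. Tnfrsf1a, the main receptor for TNF, was 14.3-fold lower, with 74.7 ± 15.0 CPM in MEFs (SD, n = 4) and 5.21 ± 1.5 CPM in mESCs (SD, n = 3; edgeR adjusted p = 1.15e-06). Fas was 10.4-fold, Casp8 9.84-fold and the kinase gene Ripk1 5.12-fold lower. Casp8, which encodes the protease that cleaves BID, thus fell from 20.5 ± 3.35 to 2.07 ± 1.19 CPM (SD, n = 4 and 3) where Bid rose. Of 3 genes that set the turnover of the MCL1 protein, 2 were higher in mESCs, beside 22.8% of all genes tested. Usp9x, a deubiquitinase, was 2.69-fold and Huwe1, a ubiquitin ligase, 1.75-fold higher, while Fbxw7 did not pass (log2 fold change 0.34). Whether so short a list differs from other genes was not tested.

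The p53 axis is the source of Bbc3 and Pmaip1 induction after DNA damage. Of its 12 genes, 4 were higher and 3 lower in mESCs, beside 22.8% and 25% of all genes tested. These counts are near those shares and say nothing particular of the axis. Trp53inp1 was 4.39-fold and Mdm4, an inhibitor of p53, 2.75-fold higher, while Phlda3 was 4.65-fold and the cell cycle inhibitor Cdkn1a 2.71-fold lower, the last from 469 ± 63.0 to 173 ± 34.8 CPM (SD, n = 4 and 3). Of the 4 FOXO and stress factors, Foxo1 was 3.01-fold higher, and Foxo3, an activator of Bcl2l11 and Bbc3, did not pass (log2 fold change -0.13, edgeR adjusted p = 0.757).

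**Figure D4:**
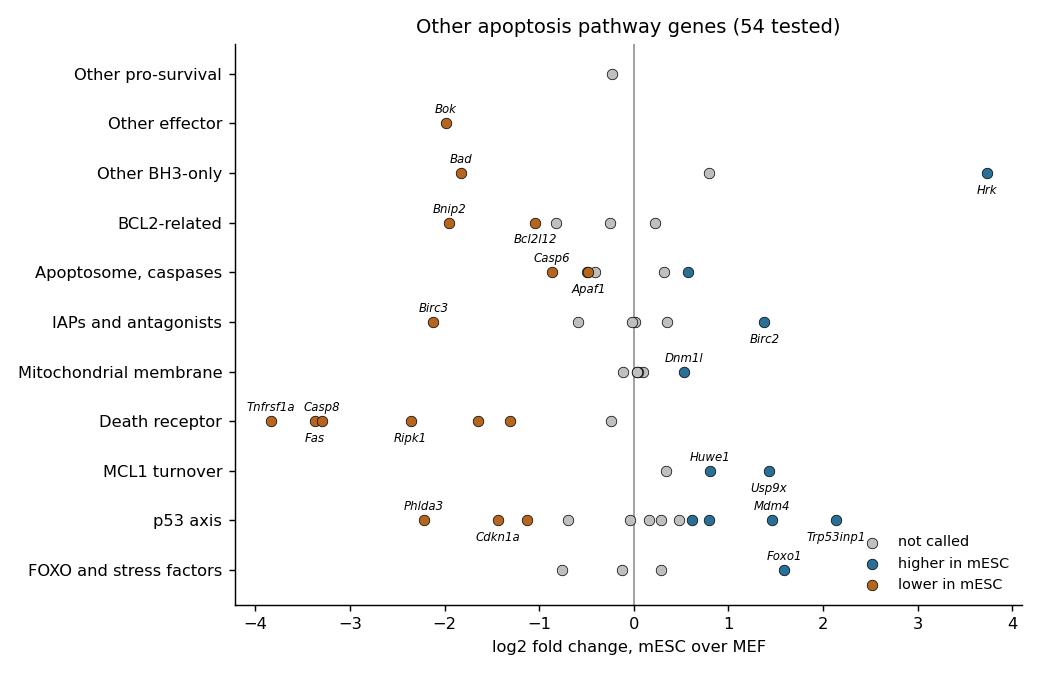
Log2 fold change of mESCs over MEFs (horizontal axis) for the 54 other pathway genes tested, by list (rows), with calls at an adjusted p under 0.05 in colour and some of the called genes, at most 4, named in each list. The death receptor genes lie to the left, with 6 of 7 lower in mESCs, and most of the mitochondrial membrane genes lie close to 0.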

How the data were processed

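The authors made libraries biased to the 3′ end with a molecular identifier added at poly(A) priming, aligned the reads to mm10 with STAR (version 2.4.2a per the labels, another in the methods), used Je to collapse the identifiers and featureCounts to count unique alignments to exons. The deposited values are whole-number counts without normalization. Annotation release and strand setting are not given in the sources used here. Column names give the cell type, an unexplained letter and numbers that no source ties to the samples, and a library is therefore named by its total. In all, 0 columns were left unused. The 26 rows whose symbols had become dates held 0.249% of counts and stayed in the totals.

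Counts were tested with edgeR 4.0.16 (limma 3.58.1, R 4.3.3), using TMM, filterByExpr and glmQLFTest over 7 libraries without covariates. Standard errors were taken as the absolute log2 fold change divided by the square root of F. Log2CPM used a prior count of 2. Alternatives were DESeq2 1.42.0, other scaling and filters, a test against a fold change of 2, other prior counts and each library left out. The code was tested on simulated data. Replicate libraries differed beyond sampling noise (chi-square of 15.6 to 31.1 per degree of freedom). Coordinates and overlaps are from GENCODE on GRCm38, and promoters from RefSeq. The members and lists were chosen with earlier results of these data known. Named were all members and, in each other list, up to 4 called genes with the largest change. Uncalled pathway genes were named after their values were seen. The result of 1 gene that this rule would name is not reported here.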

Additional observations from a re-analysis of the deposited data

Results flagged for a closer look

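Of 17 quantities checked in the 4 MEF libraries (the levels of the 10 genes and 7 ratios), 1 had a library apart from the others, where chance flags about 1 in 20. Bik held 0.306 CPM in the MEF library of 7312679 counts, from 2 counts, which is under the floor of 3, and 0 counts in the other MEF libraries.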

How the results depend on the processing

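No paired analysis was possible because no source gives a pairing of MEF with mESC libraries. Of 117 values of the log2 fold change of the 9 tested members under the alternatives, 113 kept their direction and call. With library size as the only scaling, Bax (0.41) and Bcl2l11 (0.87) passed the threshold and Bbc3 turned to 0.10 without passing it. With a test against a fold change of 2, Bcl2l1 (-1.29) no longer passed. Library size as the only scaling moved the median over all genes (log2) from 0.04 to 0.32, with 5205 genes higher and 3334 lower. Of these calls, 61% were higher in mESCs in place of 47.7%. The number of members higher in mESCs was 3, and 5 with library size only; the number lower was 2, and 1 against a fold change of 2. For the other pathway genes, the 11 higher became 17 with library size only and 4 against a fold change of 2. Over all genes, 1714 were higher and 2277 lower against a fold change of 2, in place of 3785 and 4153, by construction of a stricter test. Library size only leaves out the TMM factors, which were 0.896 to 0.962 in MEFs and 1.093 to 1.138 in mESCs. The upward move under that scaling is therefore by construction too. The cause of the other changes was not tested. Leaving out each library in turn gave 3 to 4 members higher and 2 lower, beside 3234 to 3619 higher and 3792 to 3916 lower of the 16127 to 17356 genes tested. The fourth was Bik without the mESC library of 8057985 counts, which held the fewest Bik counts of the mESC libraries (7). Bik passed the filter in that fit only because this library was left out, so the call adds no separate support. With each library left out, the log2 fold change ran from -3.18 to -2.84 for Bcl2, -1.41 to -1.19 for Bcl2l1 and 1.47 to 1.64 for Mcl1. It ran from 2.5 to 2.85 for Pmaip1 and 1.85 to 2.41 for Bid, and each of these genes passed every time. The difference for Bik was 1.27 to 1.85 CPM. The ratios kept their direction with each library left out and with 2 counts added. The mean log2CPM of Bik in MEFs depended on the prior count. The depth limits Bik, Hrk, Bid and Bak1, Bid having 19 and 22 counts in 2 MEF libraries.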
